A study of Mus musculus with 2 samples.

Results

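Immediate early genes are switched on within minutes of a stimulus without new protein synthesis, and their RNA is widely read as a trace of recent activity in neurons. Here 10 of them, picked by symbol, were followed through the 32285 genes of a single-nucleus dataset of the mouse hypothalamus: Fos, Fosb, Junb, Egr1, Egr3, Arc, Npas4, Nr4a1, Nr4a2 and Nr4a3. All 10 had a row in the count matrix, and 9 reached the 20 UMIs (unique molecular identifiers, each standing for a captured RNA molecule) needed to compare the hashtags. Egr3, with 2 UMIs in all, did not.

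The nuclei came from male C57BL/6J mice of 10 to 12 weeks, with no genetic change or treatment named in the labels, and were sorted for the neuronal nuclear protein NeuN. Gene expression was sequenced from 1 pool, together with hashtags, a hashtag being a barcoded antibody that marks the nuclei of a preparation. The labels name the arcuate nucleus (ARC) only, while the matrix carries 2 hashtags, called ARC and PVH. After the filters of the study, 3767 nuclei carried the ARC hashtag and 3074 the PVH hashtag. No label ties a nucleus to a mouse or gives the feeding state at tissue collection, so each hashtag was 1 sample without replicates. No test was made across nuclei, and the 95% intervals given (exact Poisson for levels, exact binomial for shares and ratios) cover counting error only.

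Calcium entry and second messengers activate kinases that phosphorylate factors already sitting on these promoters, such as CREB at the cyclic AMP response element (CRE) and SRF at the CArG box. Most of the encoded proteins are transcription factors that change later gene expression, and Arc acts at the synapse. In the arcuate nucleus, Fos staining is commonly used to see which of the neurons that stimulate or suppress feeding were active.

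Depth was alike for the hashtags, with a median of 4827 UMIs per nucleus for ARC and 5039 for PVH, and totals of 19492658 and 16732895 UMIs. Clustering of both hashtags together, with the immediate early genes and related activity genes left out of the variable genes, gave 21 clusters, of which 20 were neuronal. The remaining 32 nuclei had the markers of oligodendrocytes and their precursors. The hashtags did not separate all RNA: Sim1, a marker of the paraventricular region, was 10.3-fold higher with the PVH hashtag (8.91 to 11.9), but Agrp, an arcuate peptide, stood at 152 CPM (a gene's share of the UMIs, times 1000000) there against 174 with ARC, Oxt at 616 against 565 and Avp at 324 against 310. What free RNA contributed to the members was not tested.

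By the GENCODE M21 annotation of GRCm38, the 9 members placed here span 3.38 to 41.3 kb. Fos, which encodes a partner in the dimeric factor AP-1, spans 3.38 kb in 4 exons on chromosome 12 (85473890 to 85477273, plus strand). Junb, a JUN-family partner in AP-1, lies on chromosome 8 (84974484 to 84978718, minus strand), where its model overlaps Prdx2 on the opposite strand. The orphan nuclear receptor genes Nr4a1, Nr4a2 and Nr4a3 span 20.5, 17.2 and 41.3 kb on chromosomes 15, 2 and 4, with up to 8 exons each. The median span of the 21951 protein-coding genes was 17.4 kb. Levels were not corrected for length, so they are compared between groups of nuclei and not between genes.

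RefSeq promoter windows (GRCm38.p6, 250 bases before to 50 after the start) were read for 7 members. Egr3 and Arc matched none by symbol, and the window of Egr1 is not reported here. The windows were searched on both strands for the CRE core TGACG, because CREB is a textbook route to these genes. All 7 held at least 1 match, against 20.8% of all 32851 promoter windows. Nr4a1, Nr4a2 and Nr4a3 held 4 matches each, Fos and Npas4 2 each, and Fosb and Junb 1 each. The full palindrome TGACGTCA, which contains the core, was in none of the 7 and in 1.79% of all windows, the AP-1 site TGACTCA in none and 5.20%, the NR4A monomer site AAAGGTCA in none and 1.51%, and the CArG box in none and 1.63%. The EGR site GCGNGGGCG was in Fosb, Nr4a1 and Nr4a2, against 5.55% of windows. A match is a string of letters in this window and not a measured binding site.

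The 250 bases before the start are shown for the 4 members on which the results below turn most, each 5′ to 3′ on the strand of the gene, with the CRE core on either strand (TGACG or its complement) in capitals. That of Nr4a1 lies inside the longer GENCODE gene model, before a downstream start.
Fos (chr12:85473640-85473889, plus strand): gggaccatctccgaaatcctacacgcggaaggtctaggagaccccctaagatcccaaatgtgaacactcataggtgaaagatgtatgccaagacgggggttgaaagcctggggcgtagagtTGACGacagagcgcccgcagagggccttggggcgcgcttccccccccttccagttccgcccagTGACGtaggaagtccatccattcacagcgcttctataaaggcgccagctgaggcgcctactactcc
Junb (chr8:84978749-84978998, minus strand): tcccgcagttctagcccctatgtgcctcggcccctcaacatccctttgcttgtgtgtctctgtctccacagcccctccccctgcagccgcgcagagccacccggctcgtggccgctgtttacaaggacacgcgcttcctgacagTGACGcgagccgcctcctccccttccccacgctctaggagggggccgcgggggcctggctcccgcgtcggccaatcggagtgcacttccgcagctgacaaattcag
Nr4a1 (chr15:101266596-101266845, plus strand): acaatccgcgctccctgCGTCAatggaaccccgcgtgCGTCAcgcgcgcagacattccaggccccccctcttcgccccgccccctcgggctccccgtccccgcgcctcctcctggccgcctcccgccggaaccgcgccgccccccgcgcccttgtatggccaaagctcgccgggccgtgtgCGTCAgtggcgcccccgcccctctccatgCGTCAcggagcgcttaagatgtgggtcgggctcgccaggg
Nr4a2 (chr2:57124004-57124253, minus strand): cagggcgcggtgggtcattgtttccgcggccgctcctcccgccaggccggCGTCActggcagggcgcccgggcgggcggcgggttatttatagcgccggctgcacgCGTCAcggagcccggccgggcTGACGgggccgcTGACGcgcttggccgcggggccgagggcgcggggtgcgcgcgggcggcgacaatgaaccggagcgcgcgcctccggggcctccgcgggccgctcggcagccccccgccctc

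The first question was whether immediate early gene RNA differed between the ARC and PVH preparations. The 10 genes together were at 43.0 CPM with the ARC hashtag (839 UMIs; 40.2 to 46.1) and 49.8 with PVH (833 UMIs; 46.5 to 53.3), a ratio of 1.16 (1.05 to 1.27). A difference was called where it reached 1.5-fold with at least 20 UMIs over both groups. Of the 9 members with enough UMIs, 2 were called higher with PVH and 0 lower. Across all 18112 genes compared, 7.62% were called higher and 7.07% lower.

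Among the AP-1 genes, Fos was at 3.33 CPM with ARC (65 UMIs) and 4.48 with PVH (75 UMIs), a ratio of 1.34 whose interval reached below 1 (0.95 to 1.90). Junb was at 9.95 (194 UMIs) and 11.1 (186 UMIs), a ratio of 1.12 (0.91 to 1.37). Fosb, whose products include the long-lived truncated form ΔFosB, was called higher with PVH at 2.16-fold, but on 7 and 13 UMIs with an interval from 0.80 to 6.40. The intervals of all 3 ratios included 1.

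The zinc-finger factor Egr1 was the only member whose hashtag ratio was both called and had an interval above 1: 1.85 CPM with ARC (36 UMIs) and 3.11 with PVH (52 UMIs), 1.68-fold (1.08 to 2.65). Egr3, another factor of that family, had 2 UMIs with ARC and 0 with PVH, where a count of 0, read as up to 3 UMIs, allows up to 0.179 CPM. Npas4, a factor induced by calcium entry in neurons, was at 3.80 and 4.60 CPM (ratio 1.21, 0.87 to 1.69). Arc, which encodes a capsid-like protein acting at the postsynapse, was at 0.616 and 0.538 CPM on 12 and 9 UMIs (ratio 0.87, 0.33 to 2.26). The gene shares its symbol with the hashtag name but has a row of its own.

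The NR4A receptors act without a known ligand, so that their amount sets their activity. Nr4a1 was at 13.9 CPM with ARC (271 UMIs) and 14.3 with PVH (239 UMIs), and Nr4a3 at 3.18 and 3.23, with ratios of 1.03 (0.86 to 1.23) and 1.01 (0.69 to 1.49). Nr4a2 was at 5.95 (116 UMIs) and 7.65 (128 UMIs), a ratio of 1.29 (0.99 to 1.67). For Nr4a1 and Nr4a2 these totals combined ratios of opposite direction in glutamatergic and GABAergic neurons.

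**Figure D1:**
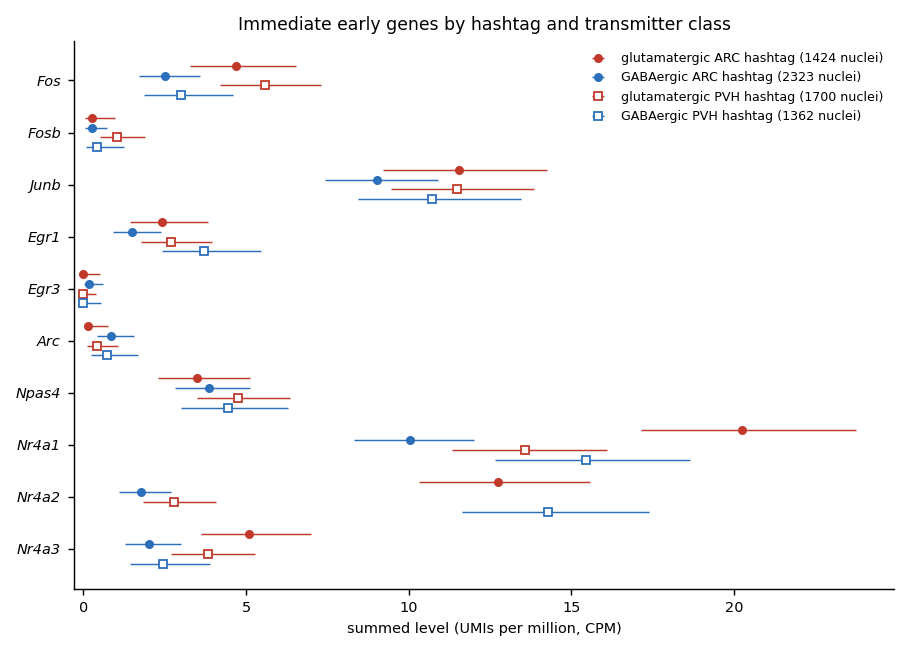
Summed level of each immediate early gene (CPM, linear axis) in glutamatergic (red) and GABAergic (blue) neurons with the ARC (filled circles) or PVH hashtag (open squares), with exact 95% Poisson intervals. Nr4a2 is high in glutamatergic ARC and GABAergic PVH neurons, at 12.7 and 14.3 CPM, and low in the other two groups.

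Neuron clusters were split by whether the vesicular glutamate transporter gene Slc17a6 or the GABA transporter gene Slc32a1 was the higher. Cluster 6, with 412 ARC nuclei, was close to this cut and counted as glutamatergic, with Slc17a6 at 42.4 and Slc32a1 at 37.6 CPM. In glutamatergic neurons the 10 genes together were lower with PVH (46.2 CPM) than with ARC (60.6), a ratio of 0.76 (0.67 to 0.87). In GABAergic neurons they were higher with PVH (55.2) than with ARC (32.0), a ratio of 1.73 (1.49 to 1.99). Nr4a2 had the widest split: 2.80 CPM with PVH and 12.7 with ARC in glutamatergic neurons, but 14.3 and 1.76 in GABAergic neurons. The PVH over ARC ratio of Nr4a1 was 0.67 (0.53 to 0.85) in glutamatergic and 1.54 (1.17 to 2.01) in GABAergic neurons, while the intervals of Nr4a3 included 1 in both (0.75, 0.47 to 1.22, and 1.21, 0.61 to 2.35). The Egr1 ratio was 1.12 (0.59 to 2.16) in glutamatergic and 2.47 (1.30 to 4.78) in GABAergic neurons. Without Nr4a2 the ratios of the other 9 genes were 0.91 (0.79 to 1.05) and 1.35 (1.16 to 1.59). Of the 2323 GABAergic ARC nuclei, 1560 lay outside the AGRP-like cluster described below. These had Nr4a1 at 14.3 CPM and the 9 genes at 34.9, against 15.4 and 40.9 in GABAergic PVH neurons. Their Egr1 was at 1.79 against 3.72 CPM and their Nr4a2 at 2.05 against 14.3. This cut was chosen after the data were seen, and its hashtag ratios were not computed.

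Within the ARC hashtag, 5 of 7 members tested were called higher in glutamatergic than in GABAergic neurons and 0 lower, against 6.59% of genes higher and 7.52% lower. Fos was at 4.69 CPM (35 UMIs) in glutamatergic and 2.51 (30 UMIs) in GABAergic neurons, 1.87-fold (1.12 to 3.15). Nr4a1 was at 20.2 and 10.0 CPM, 2.02-fold (1.58 to 2.58), Nr4a3 at 5.10 and 2.01 CPM, 2.54-fold (1.48 to 4.42), and Nr4a2 7.25-fold higher (4.48 to 12.3). The fifth, Egr1, had an interval that crossed 1 (1.60, 0.79 to 3.27). Junb (1.28) and Npas4 (0.91) were not called.

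Of the 95 glutamatergic ARC Nr4a2 UMIs, 81 lay in the KNDy-like cluster described below. With the AGRP-like and KNDy-like clusters left out, a comparison chosen after the data were seen, the ratio of Nr4a2 went to 1.07 (0.48 to 2.34) and that of the 10 genes from 1.90 (1.65 to 2.18) to 1.43 (1.22 to 1.68). That of the 9 genes without Nr4a2 moved less, from 1.59 (1.37 to 1.84) to 1.45 (1.23 to 1.71). Nr4a1 went to 1.45 (1.12 to 1.89) and Junb from 1.28 to 1.48 (1.06 to 2.08), while Fos was at 1.98 (1.12 to 3.60) and Nr4a3 at 2.14 (1.203 to 3.92). Of the 338 UMIs of the 10 genes left in glutamatergic neurons, 109 lay in the POMC-like and 93 in the VMH-like cluster described below. Those clusters stood at 67.0 and 84.2 CPM, against 52.9 for all glutamatergic neurons left. The ratio without them was not computed.

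Within the PVH hashtag, 2 of 7 members were called higher in glutamatergic neurons and 1 lower, against 7.89% and 6.31% of genes. Fos was higher in glutamatergic neurons, at 5.59 CPM (54 UMIs) against 3.002 (21 UMIs), 1.86-fold (1.11 to 3.25). Glutamatergic cluster 16, described below, held 17 Fos UMIs over both hashtags, with 184 of its 190 nuclei from PVH. The Fos ratio without cluster 16 was not computed. Nr4a3 was at 1.58-fold (0.87 to 2.99) and Nr4a2 at 0.20-fold (0.12 to 0.30). Without cluster 3, which held most GABAergic Nr4a2, the Fos ratio was 1.33 (0.73 to 2.59) and that of Nr4a2 0.71 (0.36 to 1.51), neither called.

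**Figure D2:**
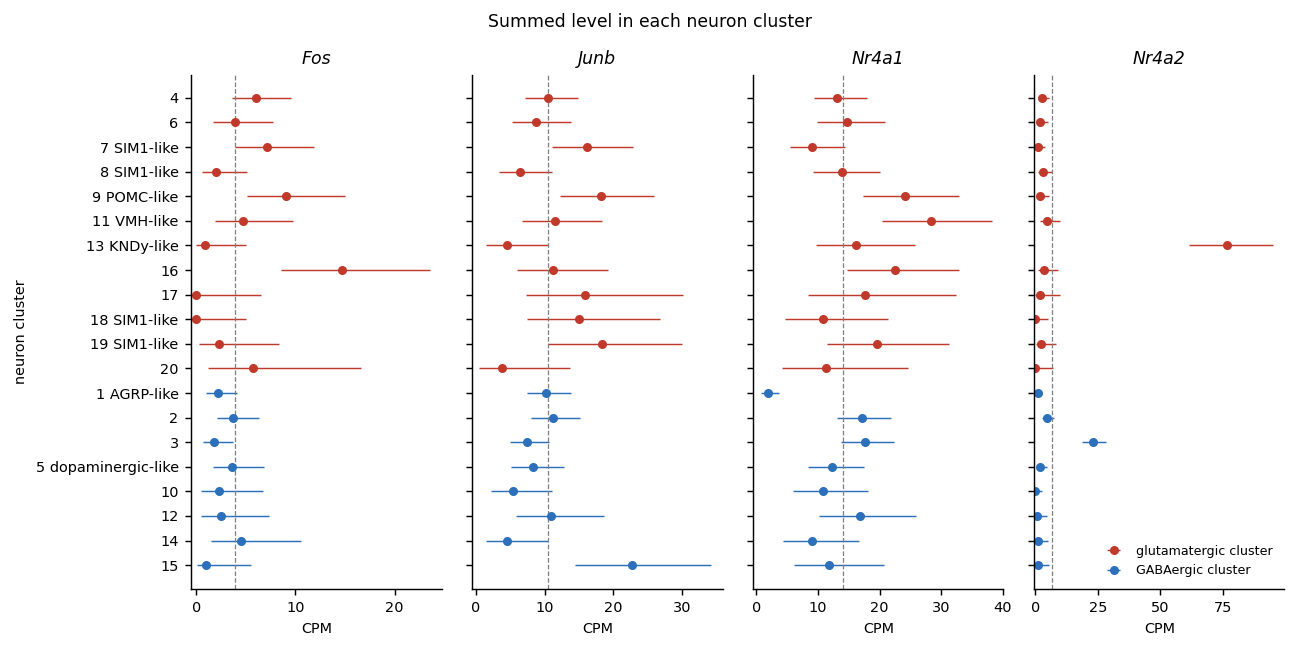
Level (CPM, linear axes of different range) of Fos, Junb, Nr4a1 and Nr4a2 in each of the 20 neuron clusters, glutamatergic in red and GABAergic in blue, with exact 95% Poisson intervals and a dashed line at the level over all nuclei. Nr4a2 stands out in clusters 13 and 3, at 76.7 and 23.1 CPM, and Nr4a1 is lowest in cluster 1 at 1.91 CPM.

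Across the 20 neuron clusters the members varied to unequal degrees. Junb was found in all of them, from 3.78 CPM in cluster 20 to 22.8 in cluster 15, with a median of 10.7. Npas4 was likewise found in all 20, from 0.902 CPM in cluster 13 to 7.09 in cluster 7. Nr4a1 ran from 1.91 CPM in cluster 1 to 28.3 in cluster 11, and Nr4a3 from 0 to 10.8 CPM in cluster 11, with cluster 17 next at 10.6. Fos was at 0 in 2 clusters and highest in cluster 16, and Egr1 was highest in cluster 7, a SIM1-like cluster, at 7.60 CPM (15 UMIs in 13 of 383 nuclei).

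For the sparse members no order of clusters can be read. Fosb had no UMI in 10 of the 20 neuron clusters, Arc in 11 and Egr3 in 19, both Egr3 UMIs lying in cluster 15. The highest Arc level, 2.52 CPM in cluster 12, rested on 3 UMIs.

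Cluster 16, a glutamatergic cluster led by Sim2, Cldn14 and Ebf1 with 184 of its 190 nuclei from the PVH hashtag, had Fos at 14.7 CPM (8.57 to 23.5), against a median of 3.05 over clusters. Its 17 Fos UMIs came from 9 nuclei, and 1 of these held 7. POMC-like cluster 9 followed at 9.06 CPM (5.07 to 14.9), with 15 UMIs in 14 nuclei. The intervals of these 2 clusters overlap.

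Named classes, each resting on at least 3 markers, were then compared with the other neurons of their hashtag. AGRP-like neurons (cluster 1, markers Agrp, Npy, Acvr1c, Corin and Otp, 763 nuclei with ARC) drive hunger and release GABA. The 10 genes summed to less there than in other ARC neurons, 22.5 CPM against 48.5, a ratio of 0.46 (0.37 to 0.58). Nr4a1 gave 8 of the 93 UMIs in AGRP-like neurons and 263 of the 741 in the others. Nr4a2 gave 5 and 111, and Nr4a3 4 and 58. The ratio of the sum without these NR4A genes was not computed, so the sum is no measure of the other members. Of 7 members tested, 0 were called higher and 5 lower, where 7.78% and 13% of all genes were.

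The NR4A genes had the lowest ratios. Nr4a1 had 8 UMIs in these 763 nuclei, 1.94 CPM against 17.2, a ratio of 0.11 (0.05 to 0.22). Nr4a3 was at 0.968 against 3.80 CPM (0.25, 0.07 to 0.69) and Nr4a2 at 1.21 against 7.27 (0.17, 0.05 to 0.40). The KNDy-like cluster held 81 of the 116 ARC Nr4a2 UMIs, and with it left out of the other neurons, a choice made after the data were seen, the Nr4a2 ratio was 0.57 (0.17 to 1.49), that of Nr4a1 0.11 (0.05 to 0.22) and that of the 10 genes 0.51 (0.41 to 0.63). Junb, at 9.92 against 10.0 CPM (0.99, 0.68 to 1.41), and Npas4, at 4.36 against 3.53 (1.23, 0.68 to 2.13), did not share the pattern. Fos (0.59, 0.26 to 1.21) and Egr1 (0.46, 0.12 to 1.30) were called lower on 9 and 4 UMIs with intervals that included 1. Depth was not lower in AGRP-like nuclei, with a median of 5023 UMIs against 4778.5 in the others.

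POMC-like neurons (cluster 9, markers Pomc, Cartpt, Prdm12, Sntb1 and Tbx3, 280 nuclei with ARC) make melanocortin peptides that suppress feeding. Their immediate early gene level was higher, 67.0 against 40.8 CPM (1.64, 1.33 to 2.01). With finer clusters (resolution 1.2), where 428 rather than 280 nuclei took this name, the log2 ratio went from 0.72 to 0.32, under 1.5-fold. Of 7 members, 4 were called higher and 1 lower, with 8.95% and 16.6% over all genes. Fos was at 9.22 CPM (15 UMIs) against 2.81, 3.28-fold (1.71 to 5.94). Junb was at 18.4 against 9.22 CPM, 2.00-fold (1.31 to 2.97).

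In the same cells Nr4a1 was at 24.6 CPM (40 UMIs) against 13.0, 1.89-fold (1.32 to 2.66), and Nr4a3 at 7.38 against 2.81, 2.63-fold (1.27 to 5.00). Nr4a2 was the member called lower (0.29, 0.06 to 0.87), but without the KNDy-like cluster among the other neurons it was at 1.84 against 1.91 CPM (0.96, 0.19 to 3.08) and not called. Egr1 and Npas4 were each at 0.99-fold. POMC-like and AGRP-like neurons thus lay on opposite sides of the other ARC neurons for Nr4a1 and Nr4a3. For Fos the AGRP-like ratio was below 1, but its interval included 1 (0.59, 0.26 to 1.21). POMC-like nuclei were deeper, with a median of 5526.5 UMIs against 4792, and with every nucleus thinned to 1000 UMIs the log2 ratio of the 10 genes was 1.18.

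KNDy-like neurons (cluster 13, markers Tac2, Kiss1, Pdyn, Esr1 and Tacr3, 215 nuclei with ARC) release kisspeptin, neurokinin B and dynorphin and pace gonadotropin release. Nr4a2, the receptor also called Nurr1, was at 75.6 CPM here (81 UMIs) against 1.91 in the other ARC neurons (35 UMIs), 39.6-fold (26.3 to 60.7). Over both hashtags, 59 of the 221 nuclei of the cluster held a Nr4a2 UMI, 26.7% (21.0 to 33.0), and after thinning every nucleus to 1000 UMIs 6.79% did. AGRP-like nuclei had a Nr4a2 UMI in 2 of 774, or 0.258%, at a median of 5025 UMIs against 4591.

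The other members did not follow Nr4a2 in KNDy-like neurons. Fos and Npas4 had 1 UMI each, and both were called lower with intervals that included 1 (0.27, 0.01 to 1.54, and 0.24, 0.01 to 1.39). Junb was at 0.45 (0.15 to 1.08) and Egr1, on 5 UMIs, at 2.76 (0.84 to 7.16). In all 2 of 7 were called higher and 3 lower, against 10.7% and 21.5% of genes. The sum of the 10 genes was 2.71-fold higher (2.20 to 3.30), and that of the 9 without Nr4a2 was 0.82-fold (0.56 to 1.17), so the direction rested on Nr4a2.

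VMH-like neurons (cluster 11, markers Nr5a1, Fezf1, Gpr149, Adcyap1 and Sox14, 196 nuclei with ARC) carry genes of the neighbouring ventromedial nucleus. Their sum was 84.2 against 40.5 CPM (2.08, 1.66 to 2.58), with 5 of 7 members called higher and 0 lower, against 10.2% and 22.6% of genes. Nr4a2, at 4.53 CPM, was also past 1.5-fold without the KNDy-like cluster among the other neurons (2.60, 0.79 to 6.77). Nr4a1 was at 33.5 CPM (37 UMIs) against 12.8, 2.62-fold (1.80 to 3.72), and Nr4a3 at 13.6 (15 UMIs) against 2.57, 5.29-fold (2.75 to 9.62). Fos, Egr1 and Npas4 were called higher on 5 to 7 UMIs each with intervals that included 1.

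Over both hashtags the 16 Nr4a3 UMIs of VMH-like neurons came from 9 nuclei, 1 of which held 5. The log2 ratio of the 10 genes, 1.06, was 1.51 with every nucleus thinned to 1000 UMIs. With a stricter hashtag threshold (a positive quantile of 0.99), which left 79 of the 196 nuclei, it was 0.0019. With the 69 nuclei of highest member UMIs left out of the whole dataset it was 0.28, a choice that lowers any group with a high level.

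Dopaminergic-like neurons (cluster 5, markers Slc6a3, Th, Ddc, Slc18a2 and Lhx1, 323 nuclei with ARC) include cells that restrain prolactin. Their sum was 40.1 against 43.2 CPM (0.93, 0.71 to 1.19). With finer clusters (resolution 1.2), where 95 rather than 323 nuclei took this name, the log2 ratio turned from -0.11 to 0.86. Of 7 members, 1 was called higher and 3 lower, against 8.12% and 17.8% of genes. Npas4 was at 1.71-fold (0.78 to 3.37), Junb at 0.58 (0.27 to 1.09), Nr4a3 at 0.54 (0.11 to 1.66) and Nr4a2 at 0.38 (0.10 to 1.00). Nr4a2, which specifies midbrain dopamine neurons, was at 2.40 against 6.31 CPM in these hypothalamic ones, and against 1.86 without the KNDy-like cluster (1.29, 0.33 to 3.64), which ended the call. At the finer resolution the log2 ratios of Nr4a2 and Nr4a3 turned to 0.36 and 0.87.

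SIM1-like neurons (clusters 7, 8, 18 and 19, markers Sim1, Otp and Pou3f2 with Crh, Avp or Oxt, 883 nuclei with PVH) carry the genes of the endocrine and autonomic output cells of the paraventricular nucleus. Their sum was 43.7 against 52.8 CPM in other PVH neurons (0.83, 0.71 to 0.97), and the ratio was 0.99 without Nr4a2 (0.84 to 1.16). At the stricter hashtag threshold, which left 78 of the 883 nuclei, the log2 ratio of the 10 genes turned from -0.27 to 0.62. Of 7 members, 1 was called higher and 1 lower, against 7.13% and 12.4% of genes. Npas4 was at 6.22 CPM (32 UMIs) against 3.91, 1.59-fold (0.98 to 2.56), and Nr4a2 at 1.75 against 10.3 (0.17, 0.08 to 0.34). Without cluster 3 among the other neurons, again chosen after the data were seen, Nr4a2 was at 1.75 against 3.96 CPM (0.44, 0.19 to 0.95), and Fos at 3.89 against 6.13 (0.63, 0.36 to 1.09).

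Cluster 3, a GABAergic cluster that met no class name and was led by Sp8, Abcb5, Meis2 and Pax6 among others, was described because it held more Nr4a2 UMIs than any other unnamed cluster. In its 697 nuclei with PVH, Nr4a2 was at 23.7 CPM (87 UMIs) against 3.08 (40 UMIs), 7.69-fold (5.23 to 11.5). Over both hashtags 68 of 733 nuclei, or 9.28% (7.28 to 11.6), held a Nr4a2 UMI. Of 7 members, 1 was called higher and 3 lower, against 6.43% and 10.5% of genes: Fos at 0.36 (0.14 to 0.79), Junb at 0.60 (0.38 to 0.91) and Nr4a3 at 0.53 (0.20 to 1.17). Of 5 markers of oligodendrocyte precursors, 3 (Olig1, Olig2 and Gpr17) were also at 1.5-fold or more there, with the 5 summing to 3.81 CPM against 1.85 and Cspg4 at 0, and their part in the result was not tested.

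Clusters 13 and 3 held 85 and 90 of the 244 Nr4a2 UMIs, against a median level of 1.88 CPM over neuron clusters. Nr4a2 thus marked a glutamatergic ARC cluster and a GABAergic PVH cluster, in both of which Fos was below its median over clusters. Nr4a2 was not among the genes that formed the clusters, but cluster 3 was described because of its Nr4a2 UMIs. Whether genes that vary with Nr4a2 shaped the clusters was not tested.

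**Figure D3:**
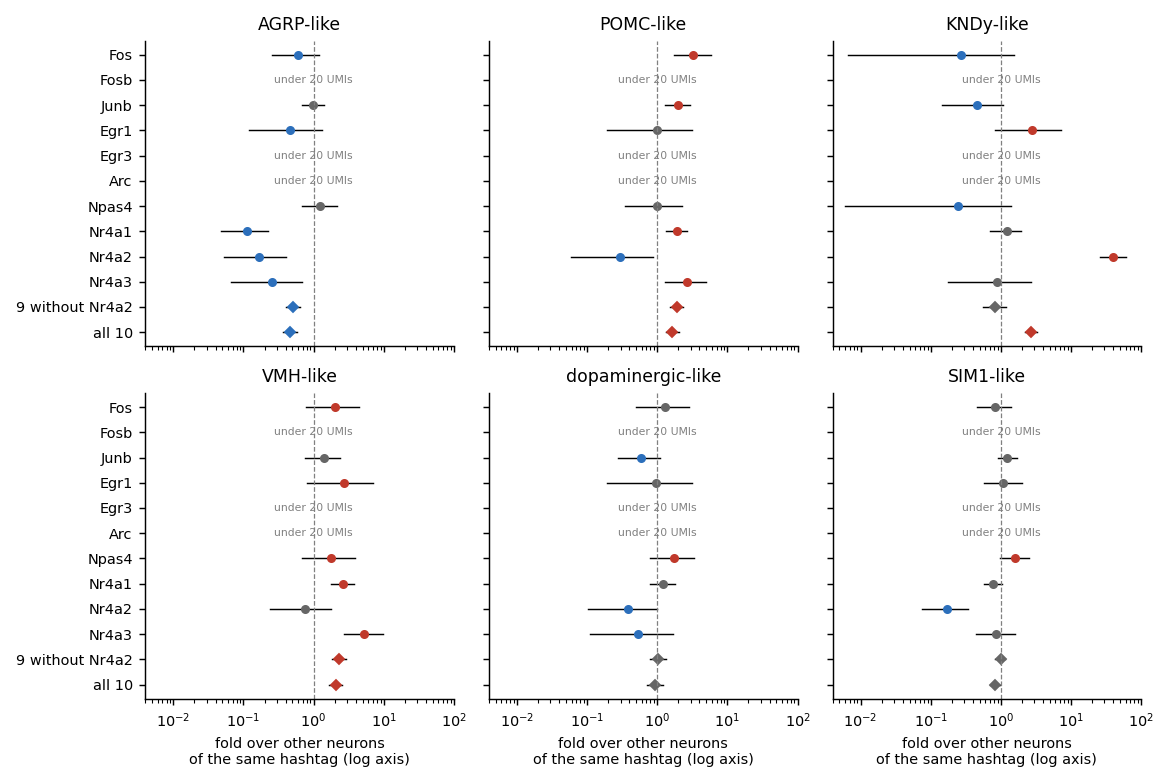
Fold of each member, of the 9 without Nr4a2 and of all 10 in each named class over the other neurons with the same hashtag (log axis, exact 95% intervals). Red marks 1.5-fold or more, blue the same fold in the other direction, grey neither. Nr4a1 is lowest in AGRP-like neurons at 0.11 and Nr4a2 highest in KNDy-like neurons at 39.6.

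The next question was whether members were found in the same nuclei. Of 6841 nuclei, 5701 held no member UMI, 948 held UMIs of 1 member, 147 of 2, 29 of 3, 12 of 4 and 4 of 5. At least 1 member was found in 15.5% of ARC nuclei (14.4 to 16.7) and 18.1% of PVH nuclei (16.7 to 19.5), and after thinning to 1000 UMIs in 3.80% and 4.52%. Among the 32 non-neuronal nuclei 4 held a member UMI (12.5%, 3.51 to 29.0) at a median of 4480.5 UMIs. Having a single member UMI can therefore not be told from free RNA or from glial expression.

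At least 2 members were found in 94 ARC nuclei (2.50%, 2.02 to 3.05) and 98 PVH nuclei (3.19%, 2.60 to 3.87). The share was 5.26% in POMC-like (2.98 to 8.53), 5.32% in VMH-like (2.94 to 8.77) and 1.03% in AGRP-like nuclei (0.447 to 2.03). After thinning these shares were 0.13% for ARC and 0.33% for PVH. In the non-neuronal nuclei it was 1 of 32, or 3.13% (0.0791 to 16.2), so 32 nuclei are too few to set a background for it.

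The 16 nuclei with UMIs of 4 or 5 members came from 7 clusters. Of these nuclei 5 had the ARC hashtag, 4 of them VMH-like and 1 POMC-like, and 11 had the PVH hashtag, 3 of them SIM1-like. Fos was present in 13 of the 16, Nr4a1 in 12, Junb in 11 and Npas4 in 9, against Nr4a2 in 4 and Arc in 1. They held 107 member UMIs at a median depth of 6362 UMIs.

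Co-detection was measured as UMIs observed in the 115 nuclei with a Fos UMI over those expected from nuclei without one in the same cluster and hashtag, scaled to depth. The 9 other members were at 139 UMIs against 28.3 expected, a ratio of 4.91 (4.13 to 5.79). The interval takes UMIs as independent and does not cover their gathering in few nuclei. The 16 nuclei with 4 or 5 members, 13 of them with Fos, held 107 member UMIs, of which 25 were Fos. The ratio was 2.61 at the stricter hashtag threshold and 9.69 in nuclei with 2 or more Fos UMIs. Over all 9435 genes with enough UMIs, 3.39% reached 1.5-fold. Nr4a3 was at 8.94 (21 UMIs; 5.53 to 13.7), Npas4 at 7.23 (19 UMIs; 4.36 to 11.3) and Junb at 4.96 (38 UMIs; 3.51 to 6.81). Nr4a1 was at 3.87 (40 UMIs; 2.76 to 5.27) and Egr1, on 9 UMIs, at 4.78 (2.19 to 9.08).

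Fosb, encoded by a FOS-family paralog, had 6 of its 20 UMIs in these nuclei, 16.8 times the expectation (6.16 to 36.5). Nr4a2 had the lowest ratio among the well-counted members, 2.17 on 6 UMIs, with an interval that included 1 (0.80 to 4.73). In nuclei with a Nr4a3 UMI, Nr4a2 was at 3.90 (12 UMIs; 2.02 to 6.82). Its intervals included 1 in nuclei with Junb, Egr1, Arc, Npas4 or Nr4a1. No Arc or Egr3 UMI was seen in nuclei with Fos, where 0.33 and 0.01 were expected. The nuclei with Fos were deeper, at a median of 5456 UMIs against 4902, which the expectation takes into account.

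Co-detection with Fos was present with each hashtag: 52 UMIs in 55 ARC nuclei against 13.4 expected (3.87, 2.89 to 5.07), and 87 in 60 PVH nuclei against 14.9 (5.85, 4.68 to 7.21). Junb in nuclei with Fos was at 2.07 with ARC (0.90 to 4.09) and 7.88 with PVH (5.32 to 11.3). Nr4a3 was at 11.4 (6.08 to 19.5) and 6.61 (2.85 to 13.0). Nr4a1 was close in both, at 3.63 (2.22 to 5.61) and 4.13 (2.52 to 6.38).

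The other members with UMIs in at least 20 nuclei were then taken in turn, which left out Fosb and Egr3. In nuclei with a UMI of the member named, the 9 others stood at 4.95 for Nr4a3 (4.08 to 5.95), 4.18 for Npas4 (3.49 to 4.96), 3.81 for Egr1 (3.04 to 4.71), 3.50 for Junb (3.02 to 4.04) and 2.77 for Nr4a1 (2.41 to 3.17). In the 185 nuclei with a Nr4a2 UMI they stood at 1.45 (1.10 to 1.87), and in the 21 with an Arc UMI likewise at 1.45, on 8 UMIs (0.63 to 2.86).

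**Figure D4:**
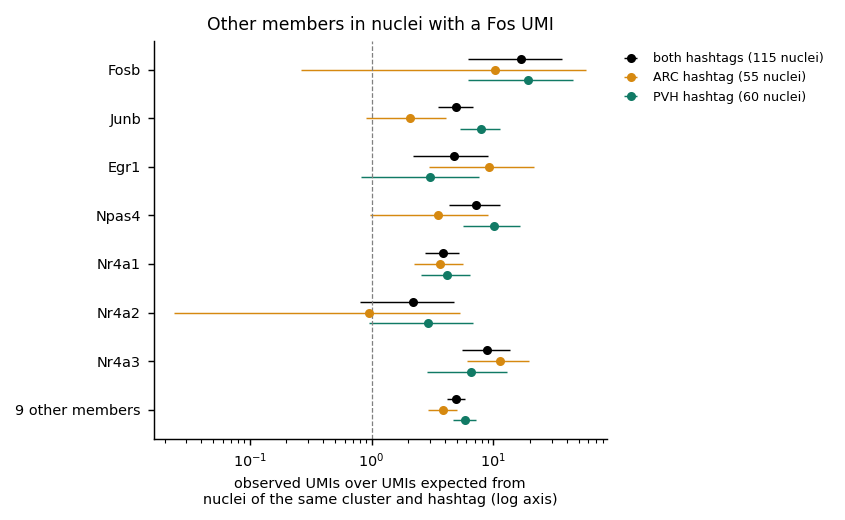
UMIs of other members in nuclei with a Fos UMI over those expected from nuclei of the same cluster and hashtag (log axis, exact 95% Poisson intervals), for both hashtags together (black), ARC (orange) and PVH (green). The 9 others together stand at 4.91, and Nr4a2 at 2.17 has an interval that reaches 1.

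Other genes of the activity response, from lists chosen with earlier results of these data known, were read in the 192 nuclei with UMIs of 2 or more members, against expectation from the same cluster and hashtag. Over 11088 genes 2.78% reached 1.5-fold. Of the other AP-1 genes, 1 of 3 tested did, Jun at 1.87 (1.32 to 2.58), while Fosl1 was at 1.11. Of the other EGR genes 1 of 1 did, the EGR corepressor Nab1 at 1.54 (0.98 to 2.31), and Egr2 had 1 UMI.

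Rapid transcription factors other than the members reached it in 3 of 6, with 1 at the opposite limit. Btg2, an antiproliferative cofactor, was at 4.48 (103 UMIs; 3.66 to 5.44), the clock gene Per1 at 3.30 (2.23 to 4.71) and Crem, whose short product ICER represses CREB targets, at 1.56 (1.22 to 1.98). Klf6 was at 0.61 (0.263 to 1.203), and Ier2 had 1 UMI. Among signalling regulators 2 of 4 reached it, the salt-inducible kinase gene Sik1 at 3.92 (91 UMIs; 3.16 to 4.82) and Plk2 at 1.52 (1.01 to 2.20), while Dusp1 had 4 UMIs.

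Synaptic and secreted genes reached 1.5-fold in 5 of 8. They were the prohormone convertase gene Pcsk1 at 2.26 (1.87 to 2.71), the neuropeptide precursor gene Vgf at 1.92 (1.45 to 2.50), Rasgrp1 at 1.81 (1.40 to 2.29), the neurotrophin gene Bdnf at 1.68 (1.05 to 2.54) and Homer1 at 1.54 (1.25 to 1.88). Of the heat shock and stress genes, which mark handling stress among other states, 0 of 3 tested did, with a median of 0.95, and Hspa1a had 0 UMIs. Nuclei with 2 or more members were also deeper, at a median of 5691.5 UMIs against 4895, with mitochondrial shares of 0.0109% and 0.0174%.

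Between hashtags the same lists were called in both directions, where 7.62% of all genes were called higher with PVH and 7.07% lower. Of the other AP-1 genes 1 of 5 was called higher with PVH, Fosl2 at 2.06 (1.37 to 3.14), and of the other EGR genes 0 of 2 in either direction. Of the rapid factors 3 of 11 were called lower, Tiparp at 0.65 (0.57 to 0.73), and, with intervals that included 1, Ier2 at 0.63 (0.21 to 1.69) and Klf2 at 0.62 (0.24 to 1.46). Signalling regulators gave 3 higher (Dusp4 1.99, Plk2 1.74, Spry4 1.70) and 1 lower (Trib1 0.31) of 10. Synaptic and secreted genes gave 3 higher (Nrn1 4.59, Bdnf 2.33, Inhba 1.91) and 3 lower (Nptx2 0.60, Pdyn 0.49, Rasgrp1 0.28) of 11, and heat shock genes 0 of 6.

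Outside the lists, 7238 genes had at least 30 UMIs in the nuclei with 2 or more members, and the 15 of highest ratio ran from 1.94 to 6.52. The first was 1700016P03Rik at 6.52 (220 UMIs against 33.7; 5.69 to 7.44), a noncoding transcript on chromosome 11 (75172560 to 75177633, plus strand, GRCm38). Its span contains Mir212 and Mir132 on the same strand and overlaps Ovca2 on the other. Next came Gem, which encodes a small GTPase that damps calcium channels, at 4.28 (133 UMIs against 31.1; 3.59 to 5.07). It was followed by the receptor kinase gene Ros1 at 3.40 (2.55 to 4.45), Midn at 2.94 (1.99 to 4.17) and the relaxin family receptor gene Rxfp2 at 2.85 (2.09 to 3.80).

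Pde10a, a phosphodiesterase of cyclic nucleotides, was at 2.15 with by far the most UMIs of the 15 (1640 against 761; 2.05 to 2.26). The others were Gm3294 (2.48), Tent5a (2.46), Mir670hg (2.31), Asb4 (2.24), C1ql3 (2.22), Hmcn1 (2.10), Map3k19 (2.08), Coq10b (1.96) and Rps6ka6 (1.94). All 15 stood above 1.5 in the 98 PVH nuclei, and 12 of 15 did in the 94 ARC nuclei. Ros1 differed most, at 7.97 with PVH and 0.81 with ARC (0.35 to 1.59), while 1700016P03Rik was at 7.01 and 5.93, Gem at 5.24 and 3.71 and Pde10a at 2.16 and 2.15.

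The settings that follow read the same nuclei again or parts of them, so they are no independent check of the 15. With finer clusters (resolution 1.2) all 15 still stood at 1.54 or more, Rxfp2 having gone from 2.85 to 1.54. Without counting Nr4a2 as a member, in 165 nuclei, the 15 ran from 2.01 to 7.30. Nuclei with 3 or more members numbered 45, and in them 13 of the 15 were at 1.5-fold or more and Rxfp2 had 0 UMIs. The RefSeq promoter windows matched 11 of the 15, of which 2 held TGACG, Midn and Coq10b. Of the 9 matched list genes that reached 1.5-fold, 7 held it: Nab1, Btg2, Per1, Plk2, Homer1, Bdnf and Pcsk1. Over all 27025 genes with a window, 23.0% held it in at least 1 window. List genes under 1.5-fold were not counted, so a link between the ratio and the CRE core was not tested.

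**Figure D5:**
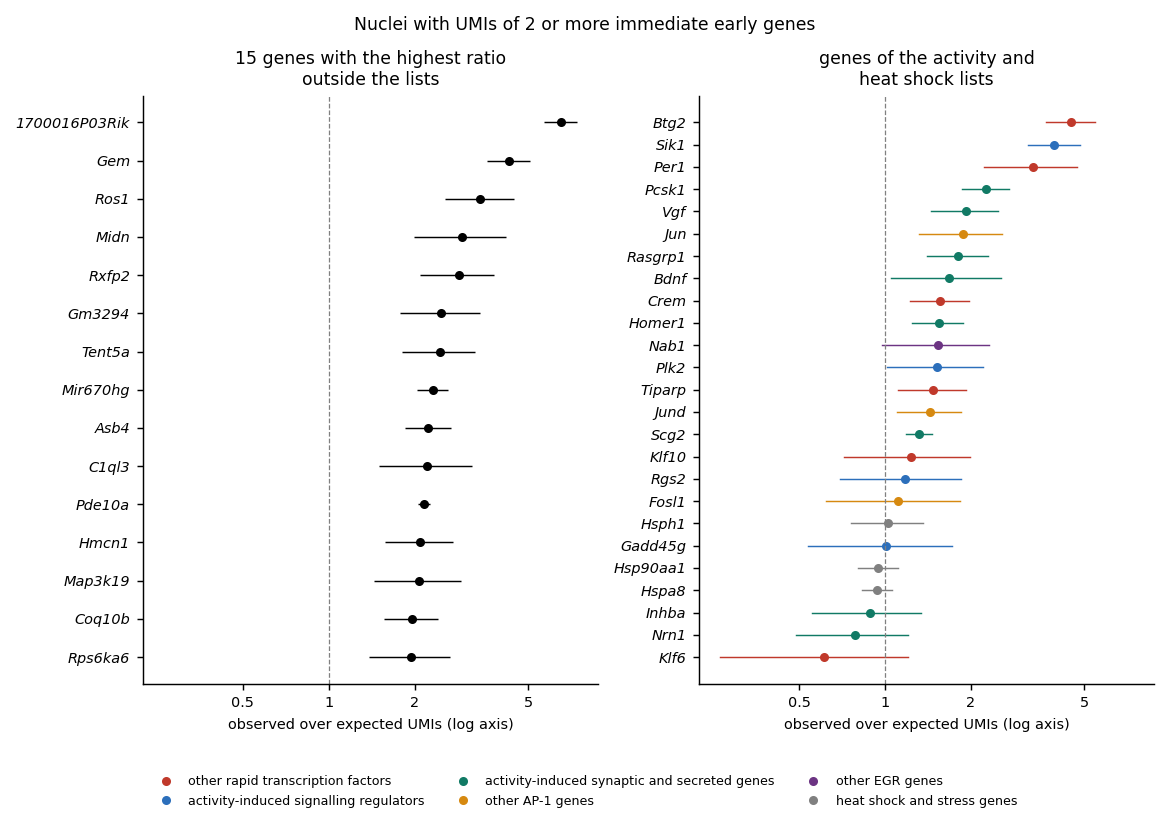
Observed over expected UMIs in the 192 nuclei with 2 or more members (log axis, exact 95% Poisson intervals), for the 15 highest genes outside the lists (left) and for genes of the activity and heat shock lists with enough UMIs (right, coloured by list). 1700016P03Rik leads at 6.52 and Btg2 at 4.48, and the 3 heat shock genes lie near 1.

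Bnc2, which encodes a zinc-finger protein and names the neurons that the study is about, was seen in 20 ARC nuclei and 16 PVH nuclei. None of the 20 held a Fos UMI, where a count of 0 read as up to 3 nuclei allows a share with a UMI of up to 15%, against 1.46% of all ARC nuclei, and 2 held any member (10%, 1.23 to 31.7). With PVH none of the 16 held one, which allows up to 18.75% against 1.95% of all PVH nuclei, and 2 held any member (12.5%, 1.55 to 38.3). Immediate early gene RNA in Bnc2 nuclei could not be told from that in other nuclei at this depth.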

How the data were processed

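NeuN-sorted nuclei were profiled on the 10x Genomics platform. The authors deposited raw UMI counts per gene and barcode, without normalization, for 11409 barcodes. Per the labels they used Cell Ranger 5.0, Seurat 4 and mm10, while the matrix header names Cell Ranger 4.0.0. The sources used here do not say whether intronic reads were counted. No other sample's columns were in the table.

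From these counts, 10170 nuclei were kept by their genes (over 800, under 5000), mitochondrial share (up to 1%) and UMIs (up to 12000). HTODemux of Seurat 5.3.0 (R 4.3.3, leidenbase 0.1.32) with a positive quantile of 0.8 called 944 doublets and left 2385 nuclei unassigned. Doublets were removed by hashtag only, so pairs with the same hashtag remain. The 6841 singlets were clustered on 1987 of 2000 variable genes (13 activity genes left out), with 30 components, 20 neighbours and Leiden at 0.55. Classes were named where 3 or more markers, the leading one among them, reached 1.5-fold. Summed UMIs were read with Python 3.11.15, scipy 1.17.1 and numpy 2.4.6, and the steps were tested on simulated data.

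The members, marker lists and activity lists were chosen with earlier results of these data known. Named were all 10 members, activity genes at 1.5-fold or first in their list, and the 15 other genes of highest ratio with at least 30 UMIs in nuclei with 2 or more members. Alternatives changed the hashtag quantile, filters, clustering, depth and weighting.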

Additional observations from a re-analysis of the deposited data

Results flagged for a closer look

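Nuclei outside the comparisons also held immediate early gene RNA. The 10 members together were at 42.4 CPM (38.3 to 46.8; 389 UMIs) in the 2385 nuclei with no hashtag called, and at 51.5 CPM (45.5 to 58.0; 270 UMIs) in the 944 nuclei called for both hashtags. The level over the 6841 nuclei with 1 hashtag, 46.2 CPM (44.0 to 48.4), lay inside both of these intervals. No control sample exists for either group of nuclei.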

How the results depend on the processing

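Depth and the lack of replicates limit every value: intervals cover counting error only, and a member had 2 to 510 UMIs in all. Of the values for summed members, shares and co-detection, 102 stayed within the main interval under an alternative and 27 left it. For single members these numbers were 457 and 32. The log2 ratio took the opposite sign in 10 of the 129 summed values, and in 1 of these the main value had been past 1.5-fold. For single members it did in 45 of 489, and in 5 of these from past 1.5-fold. A value is called reversed only in those cases. The cause was not tested unless stated. No paired analysis was possible because the 2 samples, both numbered 1, are the gene expression and hashtag libraries of 1 pool and not 2 groups.

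At a positive quantile of 0.99, which left 1229 ARC and 407 PVH nuclei, the summed PVH level was 55.2 CPM, the PVH share with 2 or more members 6.14%, the ratio in Fos nuclei 2.61, and the log2 ratios were 0.0019 for VMH-like, 0.62 for SIM1-like and 1.55 for glutamatergic over GABAergic PVH neurons. There VMH-like Fos (-0.034) and dopaminergic-like Nr4a3 (0.029) reversed. Without upper limits on genes and counts the log2 ratio was -0.032 for SIM1-like, 1.13 for glutamatergic over GABAergic ARC neurons and -0.026 for PVH. Thinned to 1000 UMIs it was 1.18 for POMC-like, 1.51 for VMH-like, -0.50 for SIM1-like and 1.18 for glutamatergic over GABAergic ARC neurons. At a resolution of 1.2 it was 0.32 for POMC-like and 0.86 for dopaminergic-like neurons, where Nr4a2 (0.36) and Nr4a3 (0.87) reversed, and at 0.3 it was 0.11 for glutamatergic over GABAergic PVH neurons. Without the 1% of nuclei with the most member UMIs the summed levels were 35.5 (ARC) and 39.0 CPM (PVH) and the VMH-like log2 ratio 0.28.

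Without Nr4a2, chosen after seeing the data, the log2 ratio was -0.28 for KNDy-like (reversed), -0.017 for SIM1-like, and 0.66 (ARC) and 0.086 (PVH) for glutamatergic over GABAergic neurons. Without the AGRP-like and KNDy-like clusters the ARC value was 0.52, and without the KNDy-like cluster among the other neurons dopaminergic-like Nr4a2 reversed to 0.37. Requiring 3 or more members gave shares of 0.345% (ARC) and 1.04% (PVH), and 2 or more Fos UMIs a ratio of 9.69.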
